A study of Mus musculus with 3 samples.

Results

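AP-1 and immediate early transcription factor genes were examined in cultured mesenchymal stem cells (MSCs), the adherent, expandable stromal fraction of fat and other tissues. The 10 genes were Fos, Fosb, Fosl1 and Fosl2 (the Fos family), Jun, Junb and Jund (the Jun family), and Atf3, Egr1 and Ier2, taken by symbol from a table of 43346 genes. All 10 were found, each in 1 row. RNA came from MSCs of the fat pads of adult C57BL/6 mice, grown in serum-supplemented medium, and was sequenced as 3 libraries of a single group, with no treatment, transgene or deletion named. The labels give neither the fat depot nor an age beyond adult, and do not state that each library stands for its own animal or culture, so the spread given here may be technical.

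AP-1 is a dimer of basic leucine zipper proteins that binds DNA through a short palindromic site. Jun proteins can pair with each other or with a Fos protein, whereas Fos proteins need a Jun-type partner, so the mixture of subunits sets which dimers can form. Fos, Fosb, Egr1, Ier2, Jun and Junb are immediate early genes, whose transcription starts within minutes of serum, growth factor or stress signals without new protein synthesis and whose RNAs are short-lived. In stromal cells and fibroblasts AP-1 is known for its part in proliferation, matrix turnover and inflammatory gene expression.

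Levels are RPKM (reads corrected for gene model length and library size), given as the mean ± SD over the libraries (n = 3). The low values move in steps of single reads, which placed the library totals at 28791578, 32962010 and 32001147 reads for libraries 1, 2 and 3 and gave whole reads for each value of the 10 genes. MSC surface genes were detected (RPKM of 1 or more in all 3 libraries) in 10 of 10 cases and haematopoietic genes in 0 of 7, with Ptprc at 0.136 ± 0.00706 and the highest, Itgam, at 0.850, 1.03 and 1.36, below the threshold in library 1 alone. Detection held for 1 of 5 adipocyte, 1 of 5 endothelial, 3 of 5 macrophage and 5 of 5 mesothelial markers, the macrophage genes summing to 30.9 to 33.0 and the mesothelial genes to 153 to 172 per library. Adipoq and Cldn5 were listed at 0. The MSC surface genes ran from Itgb1 at 329 ± 13.0 down to Nt5e at 1.15 ± 0.0916, just above the threshold. Their median was 37.5, beside 22.9 for the mesothelial genes. Which cells of the culture carried the RNAs described here was not tested. More expressing cells cannot be told apart from more RNA per cell.

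The 150 bases upstream of the annotated start are shown for 6 of these genes to set short motifs of known response elements beside the levels that follow. They come from RefSeq on GRCm38.p6, run 5′ to 3′ in the direction of the gene and end at the base before the RefSeq start. By the GENCODE M21 annotation, the windows of Fosl2 and Atf3 lie inside the gene span, and that of Fosb overlaps it.
Fos, chr12:85473740-85473889, plus strand: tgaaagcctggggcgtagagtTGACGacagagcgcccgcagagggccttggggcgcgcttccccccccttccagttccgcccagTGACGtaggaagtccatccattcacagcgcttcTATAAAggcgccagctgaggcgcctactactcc
Fosb, chr7:19310046-19310195, minus strand: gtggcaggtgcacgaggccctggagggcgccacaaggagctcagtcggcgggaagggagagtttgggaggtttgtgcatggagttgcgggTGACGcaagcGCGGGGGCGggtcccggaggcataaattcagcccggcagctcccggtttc
Fosl2, chr5:32136322-32136471, plus strand: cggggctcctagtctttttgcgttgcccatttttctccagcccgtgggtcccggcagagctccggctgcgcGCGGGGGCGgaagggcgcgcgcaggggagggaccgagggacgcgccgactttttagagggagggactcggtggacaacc
Jun, chr4:95052223-95052372, minus strand: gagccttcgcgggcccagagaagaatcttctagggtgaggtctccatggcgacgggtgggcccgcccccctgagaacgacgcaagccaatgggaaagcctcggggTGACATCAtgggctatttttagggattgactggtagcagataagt
Junb, chr8:84978749-84978898, minus strand: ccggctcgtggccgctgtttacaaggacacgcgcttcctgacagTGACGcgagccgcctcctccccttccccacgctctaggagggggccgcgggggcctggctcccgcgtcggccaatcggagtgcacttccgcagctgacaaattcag
Atf3, chr1:191183334-191183483, minus strand: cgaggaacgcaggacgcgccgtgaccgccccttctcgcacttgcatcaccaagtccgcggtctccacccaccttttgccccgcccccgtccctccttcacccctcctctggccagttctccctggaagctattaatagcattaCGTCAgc
Capitals mark matches, searched on both strands over the 250 bases before the start. The core TGACG of the cAMP response element (CRE) was found in Fos, Fosb, Junb and Atf3, the last in its reverse form, and is held by 17.8% of 32851 windows. The AP-1 site variant TGACATCA, through which Jun is known to bind its own promoter, lay 45 to 38 bases before the start of Jun (positions -45 to -38) and is held by 2.93% of windows. The EGR site GCGGGGGCG was found in Fosb and Fosl2, and in 2.57% of windows, and TATAAA in Fos, and in 12.4%. The AP-1 site TGACTCA, the full CRE TGACGTCA, which contains the core, and the CArG box bound by SRF were not found in any of the 7 windows matched to these genes (Jund is the seventh) and are held by 4.46%, 1.55% and 1.47% of windows. Fosl1, Egr1 and Ier2 had no matched window. Bases farther than 250 before the start were not searched, so a motif not found here may lie outside these windows.

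All 10 genes were detected, beside 28.3% of all genes and 47.4% of protein-coding genes. 8 of the 10 lay above 6.55, the median of the detected protein-coding genes, and 7 above their upper quartile of 14.8. Fosb and Atf3 were the exceptions below the median. At a threshold of 2 in all libraries 8 genes were detected. With each library rescaled to the mean RPKM sum of the libraries, 9 were. This scaling is called TPM here, although the sum is not the fixed one that defines TPM. Its factors were 1.11, 0.957 and 0.951 in library order, so the detection threshold kept its RPKM size and is not a threshold in true TPM.

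**Figure D1:**
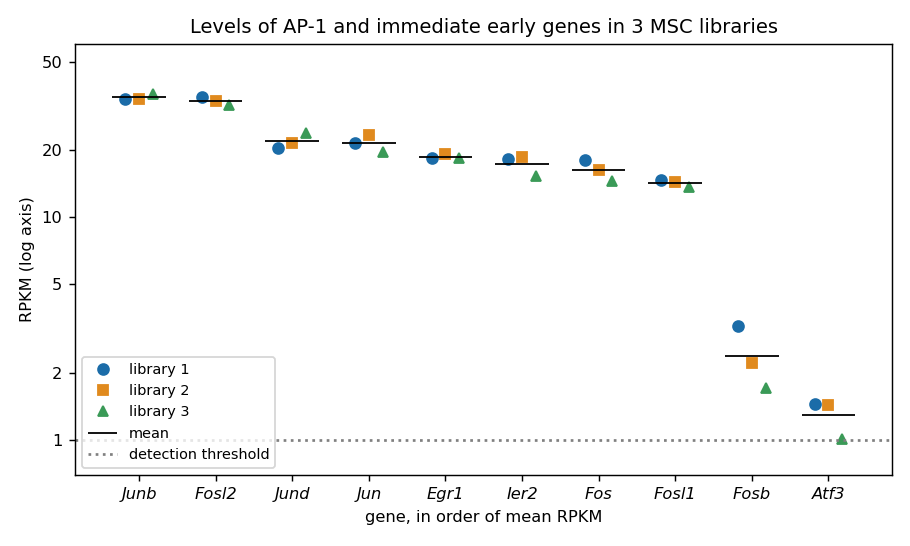
RPKM of each gene (vertical, log axis) in libraries 1 to 3 (symbols), with the mean as a bar and the detection threshold of 1 as a dotted line. 8 genes lie within a range of means from 14.3 to 34.6, with Fosb at 2.40 and Atf3 at 1.30 below them.

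The Jun family supplies the obligatory side of AP-1 dimers. Junb, which encodes a Jun protein that activates transcription less strongly than Jun at many sites, was the highest of the 10 genes, with 34.1, 33.9 and 35.6 in libraries 1, 2 and 3 (34.6 ± 0.924), from 1810 to 2099 reads per library. Its 3 values lay close together, and its level exceeded that of 90.4% of detected protein-coding genes. Jund, often described as the least inducible family member, had 20.5, 21.5 and 23.9 (22.0 ± 1.72). Library 3 was highest for Jund and library 1 lowest. Jun, the founding member, had 21.5, 23.5 and 19.7 (21.6 ± 1.91), with library 2 highest and library 3 lowest. The ranges of Jund and Jun overlapped, and Jund was above Jun in 1 of 3 libraries, so their order was not resolved. Junb made up 44.3% ± 1.13 of the summed RPKM of the family, Jund 28.1% ± 1.77 and Jun 27.6% ± 2.50.

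The Fos family was led by Fosl2, not by Fos. Fosl2, which encodes the Fos-related antigen FRA2, had 34.7, 33.1 and 32.0 (33.3 ± 1.33), from 5847 to 6394 reads, the most reads of the 10 genes. Its range overlapped that of Junb, which was above it in 2 of 3 libraries. Fos, the most rapidly induced member in many cell types, had 18.1, 16.4 and 14.5 (16.3 ± 1.78), with library 1 highest and library 3 lowest. Fosl1, which encodes FRA1, had 14.7, 14.4 and 13.7 (14.3 ± 0.506), close together and below Fos in each library, although the 2 ranges overlapped. Fosb, whose product has the same domain layout as Fos, had 3.25, 2.23 and 1.71 (2.40 ± 0.784), the widest relative separation of the 10 genes. Fosb was below Fosl1 in every library with no overlap, and the mean of Fosl1 was 5.95 times that of Fosb.

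In share of summed RPKM, Fosl2 made up 50.3% ± 1.33 of the Fos family, Fos 24.6% ± 1.08, Fosl1 21.5% ± 0.703 and Fosb 3.58% ± 0.937. Fosl1 and Fosl2, the members that lack the strong transactivation domain of Fos and Fosb, together made up 69.8%, 71.8% and 73.8% in libraries 1, 2 and 3. Fosl2 stood at 1.92, 2.02 and 2.20 times Fos. The summed RPKM of the Jun family was 1.08, 1.19 and 1.28 times that of the Fos family (1.18 ± 0.101), above it in each library. With 3 pairs an exact permutation test cannot give a two-sided p under 0.25, and 3 values against 3 cannot go below 0.1, so no p is given for any order of levels.

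**Figure D2:**
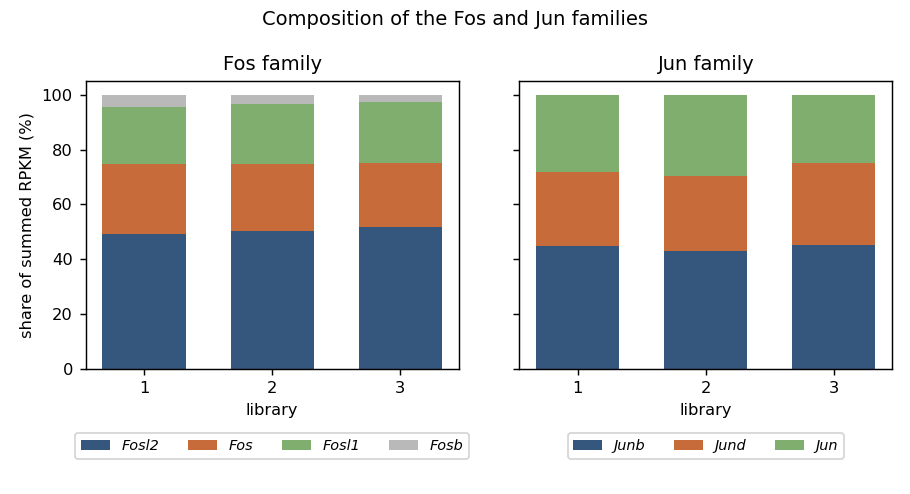
Share of each gene in the summed RPKM of its family (vertical, percent) in libraries 1 to 3, as stacked bars for the Fos family (left) and the Jun family (right). Fosl2 takes 49.1% to 51.7% of the Fos family and Junb 43.0% to 45.0% of the Jun family, while the share of Fosb is 4.60%, 3.37% and 2.76%.

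These shares rest on the gene lengths behind the RPKM. Of detected protein-coding genes, 51.1% implied the exon length of the GENCODE M21 annotation, so a mismatch is not particular to the genes studied here. The deposited values of 5 genes (Fos, Jun, Atf3, Egr1 and Ier2) implied that M21 length, whereas the other 5 implied another length. For Fosl2 it was 5855 bases against 9680, for Fosb 3751 against 6243, for Fosl1 1707 against 2033, for Junb 1840 against 2301 and for Jund 2878 against 1668. With the same reads over the M21 lengths, Jund would be the highest at 37.9, Junb would have 27.6 and Fosl2 20.1, the Junb share of the Jun family would be 31.8% and the family ratio 1.75. Fosl1 and Fosl2 would then hold 64.4% of the Fos family. Fosl2 was above Fos with either length. The reads were not recounted over the M21 exons, so the values with M21 lengths are not the levels that counting by M21 would give.

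Egr1, Ier2 and Atf3 belong to other families. Egr1, a zinc finger factor of the serum response, had 18.4, 19.2 and 18.5 (18.7 ± 0.412), nearly level across the libraries and below Jun in each. Ier2, a small immediate early nuclear protein, had 18.3, 18.7 and 15.3 (17.4 ± 1.89), libraries 1 and 2 being close and library 3 lower. Atf3, a stress-induced leucine zipper factor that can pair with Jun, was the lowest at 1.45, 1.44 and 1.02 (1.30 ± 0.247), from 70 to 102 reads. Its value in library 3 was just above the detection threshold, and the counting interval there ran from 0.791 to 1.28.

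In the order of the 10 levels, 4 of the 9 neighbouring pairs did not overlap over the libraries. These were Fosl2 above Jund, Jun above Egr1, Fosl1 above Fosb and Fosb above Atf3. With the same reads over the M21 lengths, not recounted, Jund, at 37.9, would lie above Fosl2, at 20.1. Fosb, at 1.44, would then lie near Atf3, at 1.30. The other 5 pairs overlapped, among them Egr1 with Ier2 and Ier2 with Fos, although the order of these last 2 pairs was the same in all 3 libraries. The genes nearest in level to Junb, by Euclidean distance over the 3 libraries in log2(RPKM + 1) among protein-coding genes, were Spop (distance 0.0194), Ndufb10 (0.0314) and Fgf2 (0.0333), with means of 34.6, 34.8 and 34.4.

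The genes differed in how far the 3 libraries stood apart. Exact Poisson 95% intervals on the recovered reads of at least one pair of libraries failed to overlap for 6 of the 10 genes, beside 25.4% of detected protein-coding genes. That share was not matched for reads, and the intervals narrow as reads rise. The median detected protein-coding gene had 753 mean reads, fewer than most of the 10 genes. Fosl2, with the most reads, was apart although its highest library was only 1.08 times its lowest. The 6 were Fosb, Fos, Ier2, Jun, Jund and Fosl2, whereas for Junb, Egr1, Fosl1 and Atf3 the intervals of every pair overlapped, although the spread of Atf3 was above that of counting alone. Without library 3 only 2 of the 10, Fosb and Jun, were apart, while the count was 5 without library 1 and 6 without library 2. No share over all genes is given beside these counts, so they cannot be read as particular to the 10 genes. After scaling to the upper quartile of protein-coding genes it was 6, beside 26.2% of detected protein-coding genes. The intervals cover counting error only and would be too narrow if mates of a pair were counted singly, which the sources used here do not state.

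Over the 3 libraries Fosb varied most. It rested on 351, 276 and 205 reads, the counting interval was 2.92 to 3.61 in library 1 and 1.48 to 1.96 in library 3, and library 1 was 1.90 times library 3. Its coefficient of variation (SD over mean) was 32.7%, against 6.00% from counting alone, and 0.345% of detected protein-coding genes varied as much or more. Without library 1 it was 18.8% for Fosb, below the 24.3% of Atf3. Atf3 had a coefficient of 19.0% over the 3 libraries, against 10.7% from counting, with 2.52% of genes at or above it. For Fos it was 10.9% and for Ier2 10.8%, with 13.2% and 13.3% of genes at or above them. Without library 3 the coefficients of Atf3, Fos and Ier2 were 0.715%, 6.90% and 1.82%. For Egr1 it was 2.20% and for Junb 2.67%, below the median of 4.95% over detected protein-coding genes. The median of the 10 genes was 8.34%.

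**Figure D3:**
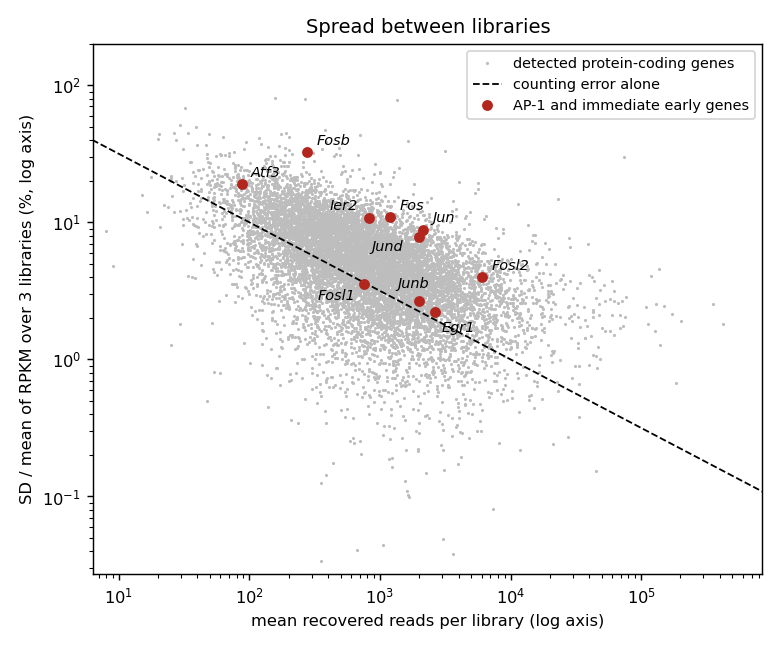
Coefficient of variation over the 3 libraries (vertical, percent, log axis) against mean recovered reads (horizontal, log axis) for 10447 detected protein-coding genes (grey), with the 10 genes in red and the counting error alone as a dashed line. Fosb lies 5.45 times above the line, while Fosl1, Egr1 and Junb lie close to it.

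The families did not share one library order. All 4 Fos family genes were highest in library 1 and lowest in library 3, a combination seen in 19.8% of detected protein-coding genes. All 4 also held this order after upper-quartile scaling, beside 14.2% of genes, and after TPM scaling, beside 51.2%. For Fosl1 the counting intervals overlapped, and for Fosl2 the highest library was 1.08 times the lowest. Of the 3 Jun family genes, none was highest in library 1, whereas after TPM scaling Jun and Junb were. For Junb the counting intervals of every pair of libraries overlapped in RPKM, so its library order was within counting error. Over the 10 genes, 7 were lowest in library 3, beside 37% of detected protein-coding genes, and 5 were highest in library 1, beside 35.3%. TPM scaling itself raised the median gene of library 1 by 0.22 on the log2 scale over the other libraries, and 9 of the 10 genes, beside 89.1% of detected protein-coding genes, were then highest there. The ratio of Fos to Fosb, which does not depend on scaling, was 5.57, 7.35 and 8.51 in libraries 1, 2 and 3.

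**Figure D4:**
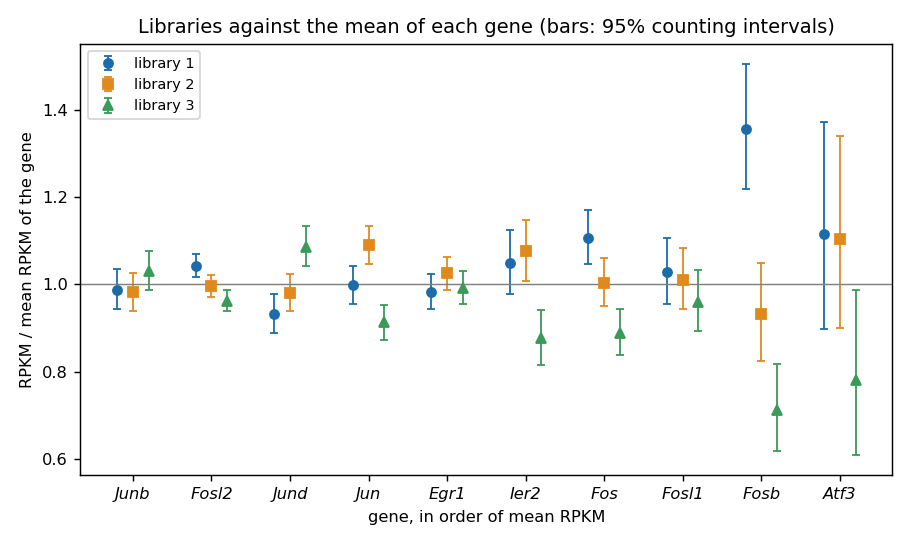
RPKM of each library divided by the mean of the gene (vertical) for the 10 genes in order of level, with 95% counting intervals as bars. For Fosb the intervals of library 1 lie above those of both other libraries, for Fos and Ier2 library 3 lies below library 1, and for Jund library 3 lies above library 1.

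Other immediate early genes were mostly detected as well, 24 of 27, beside 47.4% of protein-coding genes. Their median was 16.8 over all 27, beside a median of 0.812 over all protein-coding genes. The secreted matricellular genes Ctgf and Cyr61 were the highest at 427 ± 7.52 and 324 ± 6.86, followed by the kinase gene Plk2 at 123 ± 1.66 and the small GTPase gene Rhob at 40.2 ± 3.47. Egr4, a paralogue of Egr1, was the lowest at 0.0189 ± 0.0328. Of the 24 detected genes 15 were highest in library 1 and 12 lowest in library 3, beside 35.3% and 37% of detected protein-coding genes. After upper-quartile scaling these counts were 12 and 5, beside 29.4% and 26.3% of detected protein-coding genes.

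Among other genes for proteins that can pair with Fos or Jun, 8 of 12 were detected, beside 47.4% of protein-coding genes. Their median was 7.54. Atf4, a stress response factor, had 104 ± 2.22, Jdp2, a repressor that binds AP-1 sites, 33.3 ± 1.09, Maf 20.6 ± 1.01 and the small Maf gene Maff 17.5 ± 1.12. Batf2, known from immune cells, was the lowest at 0.0345 ± 0.0214.

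Of 21 upstream factors and kinases 19 were detected, beside 47.4% of protein-coding genes, with a median of 8.40. The MAP kinase kinase genes Map2k1 and Map2k2, which activate ERK, had 30.7 ± 0.961 and 26.2 ± 1.38, and Mapk3, which encodes ERK1, had 21.1 ± 0.400. Srf, the serum response factor that drives many immediate early promoters, stood at 18.9 ± 0.979. Mapk10, the JNK gene best known from neurons, was the lowest at 0.0562 ± 0.00956. All 6 regulators of the AP-1 and EGR1 proteins were detected. The EGR1 corepressor genes Nab2 and Nab1 had 26.8 ± 1.16 and 23.9 ± 0.918. Cops5, a COP9 signalosome subunit that binds Jun, had 10.2 ± 0.623, and the ubiquitin ligase genes Itch, Fbxw7 and Rfwd2 had 6.12 ± 0.083, 4.61 ± 0.136 and 3.27 ± 0.118.

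Genes known as AP-1 targets in other systems were detected in 13 of 14 cases, beside 47.4% of protein-coding genes. Their median was 40.1. The protease inhibitor gene Timp1 had 347 ± 18.1, the chemokine gene Ccl2 101 ± 2.57, the osteopontin gene Spp1 70.7 ± 3.31 and Vegfa 65.5 ± 1.97. The gelatinase gene Mmp9 was the lowest at 0.104 ± 0.0343. Binding of AP-1 was not measured, so the part of Fos and Jun proteins in these levels was not tested.

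**Figure D5:**
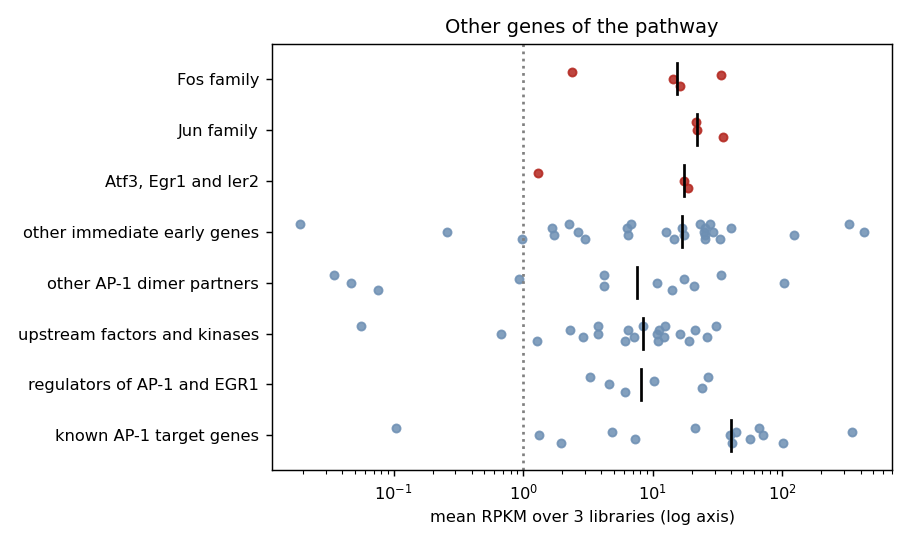
Mean RPKM over the 3 libraries (horizontal, log axis) of every gene in 8 groups, with the 10 genes in red, the other groups in blue, the group median as a black bar and the detection threshold of 1 as a dotted line. Medians run from 7.54 for other dimer partners to 40.1 for known targets.

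By the GENCODE M21 annotation on mm10 (GRCm38), Fos lies on chromosome 12 (85473890 to 85477273), Fosb on chromosome 7 (19302696 to 19310051), Fosl1 on chromosome 19 (5447547 to 5455946) and Fosl2 on chromosome 5 (32135801 to 32157842). Jun lies on chromosome 4 (95049034 to 95052222), Atf3 on chromosome 1 (191170296 to 191218039) and Egr1 on chromosome 18. Junb (84974484 to 84978718), Jund (70698949 to 70700616) and Ier2 (84661331 to 84662852) all lie on chromosome 8. Jun, Jund and Ier2 have 1 exon block, so their reads cannot be checked by splicing. Genes on the opposite strand overlap 5 of these loci, and the sources used here do not say whether counting used strand. Ccdc85b, which overlaps Fosl1 over 2767 bases of the gene spans, had 48.6 ± 1.49, and Prdx2, which overlaps Junb over 351 bases, had 32.8 ± 1.85. The antisense genes Junos at Jun and Gm11175 at Jund had 0.175 ± 0.0496 and 0.956 ± 0.110, and Gm24748 within the span of Atf3 was listed at 0. Reads of the overlapped stretches cannot be told apart from those of the partner.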

How the data were processed

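RNA was purified with the miRNeasy kit and made into libraries with the TruSeq V2 kit, per the labels' protocols. The authors deposited RPKM values for 43346 genes in 3 libraries, per the file headers. The submitters' processing notes name mm10. The aligner, counter and annotation release were not given in the sources used here. 42462 identifiers matched GENCODE M21.

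Library totals were inferred as the most frequent value that makes the steps of genes with 1 exon block single reads, with a length of the exon length plus 1. The length of each gene model was the smallest, up to 40000 bases, that gave whole reads within 0.0001 in all 3 libraries, which held for 10447 of 10447 detected protein-coding genes. A gene whose reads share a common factor gets too small a length and too few reads. Exact Poisson 95% intervals were used.

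With a single group no test between conditions was possible. The 10 genes, the gene lists and the detection threshold of 1 were chosen with earlier results of these data known. Named from the lists were the 4 highest genes and the lowest, every gene of a list under 7 genes, and the 3 nearest to the highest of the 10 genes; other genes named (partners on the opposite strand, cell type markers) came from the annotation or the marker lists. Adgre1 was read as Emr1, and 1 haematopoietic marker is not reported here. Alternatives were other scalings, thresholds, pseudocounts (1 and 0.1), leaving out each library, and, added after seeing the data, M21 lengths. Procedures were tested on simulated data. Computation used scipy 1.17.1 and numpy 2.4.6 in Python 3.11.15, with tables in pandas 2.3.3 and plots in matplotlib 3.10.9.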

Additional observations from a re-analysis of the deposited data

How the results depend on the processing

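Under TPM scaling, upper-quartile scaling and the mean of log2(RPKM + 1) or log2(RPKM + 0.1), the mean of each of the 10 genes moved by less than its SD; with M21 lengths 5 did and 5 did not. The median coefficient of variation of the 10 genes, 8.34%, was 12.5% under TPM, 8.52% under upper-quartile scaling, 8.27% and 8.62% on the log2 scale with pseudocounts of 1 and 0.1, and 3.08% to 8.53% without 1 library, the lowest being without library 3. Genes highest in libraries 1, 2 and 3 numbered 5, 3 and 2, and 9, 0 and 1 under TPM. Without 1 library, 4 to 8 genes were highest in library 2. Genes with libraries apart beyond counting error numbered 6, but 10 under TPM and 2 to 6 without 1 library. No share over all genes is given for TPM or without 1 library, and TPM scaling itself raised library 1. Computed on reads in place of RPKM, so without the correction for length, Fosl1 and Fosl2 held 82.3% of the Fos family, Junb 32.5% of the Jun family and the family ratio was 0.736, against 71.8%, 44.3% and 1.18; with M21 lengths these were 64.4%, 31.8% and 1.75. The Jun family sum was therefore above the Fos family sum with either set of lengths, the reads not being recounted for M21. It was below the Fos family sum only on reads, which are not corrected for length. Detection of the 10 genes ranged from 8 to 10, and no share over all genes is given for the alternative settings. The median spread of protein-coding genes was 4.95% among those detected and 8.91% among all above 0, which is above that of the 10 genes. The set above 0 takes in genes below the detection threshold, so it is unlike the 10 genes. Spread over counting error had a median of 3.12 for the 10 genes and 1.42 for detected protein-coding genes, not matched for reads. Counting error limits Atf3 most, at 10.7% of its level.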
